A study of Mus musculus with 5 samples.

Results

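Keratins, claudins and other genes typical of epithelial cells, 10 in all among 19938 genes measured, were followed in undifferentiated C57BL/6 mouse embryonic stem cells. The cells were Mkl2-/- (3 arrays) or wild type (2 arrays), with an independent culture behind each array. The 10 genes are the keratin genes Krt7, Krt8, Krt18 and Krt19, the trafficking gene Rab25, the splicing regulator gene Esrp1, the transcription factor gene Grhl2 and the claudin genes Cldn4, Cldn6 and Cldn7. They were read from array features whose annotation gives exactly 1 gene symbol, and each gene's feature was chosen by brightness, its mean over all 5 arrays. Each of the 10 genes had 1 such feature, so brightness decided nothing among them. The genes themselves were picked with earlier results of these arrays known, so their differences are described one by one and the number that changed is no independent evidence. Mkl2, now named Mrtfb, encodes a myocardin-related partner of serum response factor. Both genotypes grew on gelatin and a feeder layer of mouse embryonic fibroblasts in serum with leukaemia inhibitory factor, and feeder cells were taken out by letting them attach before lysis. The labels do not say whether each genotype is 1 cell line or several, so p-values measure the spread between cultures.

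Keratins are the intermediate filament proteins of epithelial cells, and a type II keratin such as keratin 8 or 7 pairs with a type I keratin such as keratin 18 or 19. Claudins are membrane proteins of tight junctions, which seal neighbouring epithelial cells together. Rab25 is a small GTPase of the Rab11 group that returns endocytosed cargo to the cell surface, Esrp1 steers splicing towards epithelial isoforms, and Grhl2 is a grainyhead-like transcription factor that activates epithelial junction genes. Mouse embryonic stem cells carry E-cadherin and have epithelial traits, and keratins 8 and 18 are among the first keratins made in the mouse embryo.

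All values below are deposited log2 expression, and differences are Mkl2-/- minus wild type. Whole-array profiles correlated at 0.9985 to 0.9992 within a genotype and at 0.9917 to 0.9938 between genotypes, and 0 pairs of arrays were identical. The targeted gene, listed as Mrtfb, has 3 features, and only the brightest is given here. This feature read 9.32, 9.32 and 9.09 on Mkl2-/- arrays, against 9.80 and 9.75 on wild-type arrays (limma adjusted p = 0.048). No source used here says whether the features lie in the deleted part. Of 15 measured stem cell markers 14 lay above the background level of 7.30, and Pou5f1 read 12.52 to 12.54 in Mkl2-/- and 12.48 to 12.52 in wild type. Of these markers 3 rose (Fgf4, Dppa5a and Utf1) and 2 fell (Nanog and Klf4). That was 33.3% of the markers, against 9.27% of all genes by the test described below. The background level was set so that 95% of 1027 olfactory receptor genes had a mean below it. All 10 epithelial genes lay above it on every array.

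Promoter windows from RefSeq (GRCm38.p6, 250 bases before to 50 bases after a gene's start) were matched for 7 of the 10 genes, and Krt19, Esrp1 and Grhl2 were not matched. Windows of Rab25, which had the largest difference of the 10 genes, of the keratin partners Krt8 and Krt18 and of Cldn4 are shown, since they carry the hexamer CACCTG or its reverse complement CAGGTG, the E-box bound by the repressors of the Snail and Zeb families described further on. Capitals mark this E-box, and each sequence reads 5′ to 3′ along the gene's strand.
Rab25 (chr3:88548230-88548529, minus strand): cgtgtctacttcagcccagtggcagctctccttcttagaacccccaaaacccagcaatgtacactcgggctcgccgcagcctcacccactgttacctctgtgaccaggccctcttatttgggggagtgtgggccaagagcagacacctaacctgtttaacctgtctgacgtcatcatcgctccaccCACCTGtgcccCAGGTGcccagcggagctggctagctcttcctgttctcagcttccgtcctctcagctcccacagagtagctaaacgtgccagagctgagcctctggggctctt
Krt8 (chr15:102004293-102004592, minus strand): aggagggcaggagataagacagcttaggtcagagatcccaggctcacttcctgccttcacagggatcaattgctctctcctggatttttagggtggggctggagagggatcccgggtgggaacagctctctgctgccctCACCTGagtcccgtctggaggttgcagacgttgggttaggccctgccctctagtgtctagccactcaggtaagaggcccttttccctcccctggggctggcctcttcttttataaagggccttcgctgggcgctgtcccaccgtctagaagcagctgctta
Krt18 (chr15:102027966-102028265, plus strand): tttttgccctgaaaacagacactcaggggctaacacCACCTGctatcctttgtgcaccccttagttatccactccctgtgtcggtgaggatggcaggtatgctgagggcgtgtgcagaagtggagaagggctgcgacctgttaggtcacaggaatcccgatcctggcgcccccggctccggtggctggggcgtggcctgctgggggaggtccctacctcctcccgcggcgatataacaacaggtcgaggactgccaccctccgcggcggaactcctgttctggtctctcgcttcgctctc
Cldn4 (chr5:134946885-134947184, minus strand): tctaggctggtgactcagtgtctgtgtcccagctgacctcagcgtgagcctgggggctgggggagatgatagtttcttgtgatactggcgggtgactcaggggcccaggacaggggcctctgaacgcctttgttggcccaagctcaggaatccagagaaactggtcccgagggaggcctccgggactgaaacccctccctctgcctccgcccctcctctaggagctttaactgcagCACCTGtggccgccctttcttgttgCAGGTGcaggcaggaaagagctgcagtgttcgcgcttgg

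All 7 matched genes held the E-box in at least 1 window. Counted by window this was 7 of 8, against 20.2% of 32851 RefSeq promoter windows of the same length. Rab25, Cldn4, Cldn6 and Cldn7 held it 2 times within 1 window, as 2.88% of all windows did. In Rab25 the E-boxes begin 64 and 53 bases before the start, and in Krt8 and Krt18 they begin 111 and 214 bases before it. Cldn7 has 2 windows, 1 of them without the E-box, so the 7 genes had 8 windows in all. Both strands were read for every motif. The sequence AACCNGGTT, in which N is any base, was searched as a grainyhead motif. It was in 0 of the 8 windows and in 0.271% of all windows. A form without the middle base was not searched, so whether grainyhead motifs are absent from these windows was not tested. The CArG box of serum response factor was in 0 of 8 and in 1.63% of all. The TATA box sequence TATAAA was found in Krt8 only (13.6% of all windows). There its forward and reverse matches overlap, begin 1 and 3 bases before the annotated start and run across it. The AP-1 motif TGANTCA was in Cldn4 only (7.81% of all windows). These motifs were chosen with the windows in view, and a match is a run of letters and not a shown binding site.

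Of the 10 epithelial genes, 2 rose (Rab25 and Grhl2), 3 fell (Krt8, Krt18 and Krt19) and 5 did not pass the test (Krt7, Esrp1, Cldn4, Cldn6 and Cldn7). The test was limma with Benjamini-Hochberg adjustment over all 19938 genes, and the threshold was an adjusted p of 0.05. By this test 9.27% of all genes were called (2.99% higher and 6.28% lower), and 12.9% of the 13564 genes above background. The arrays of both genotypes did not overlap in 8 of the 10 genes, against 33.6% of all genes and 5826 of the 13564 genes above background. A difference of at least 1.5-fold was found in 3 of the 10 (Krt18, Krt19 and Rab25), against 3.67% of the genes above background. The median difference of the 10 genes was 0.04, close to the 0.02 of all genes, because rises and falls stood on both sides. The cells were measured in bulk, so fewer cells of a type and less RNA per cell cannot be told apart.

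**Figure D1:**
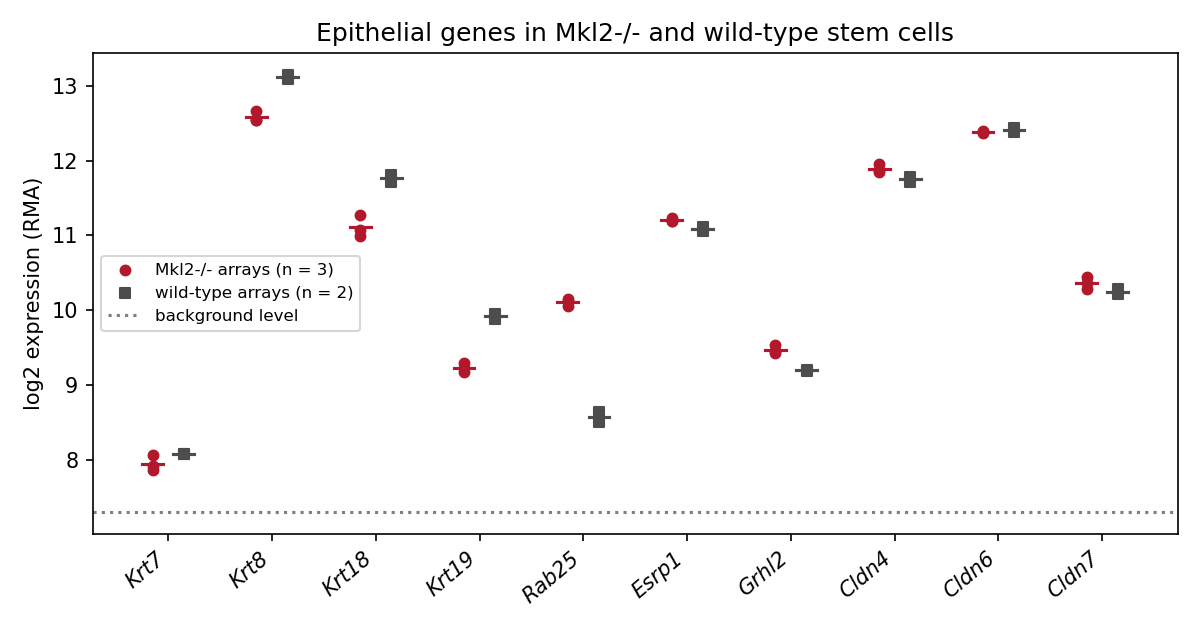
Log2 expression (vertical axis) of the 10 epithelial genes on each of the 3 Mkl2-/- arrays (red circles) and 2 wild-type arrays (grey squares), with short lines at the group means and a dotted line at the background level of 7.30. Krt8, Krt18 and Krt19 are lower and Rab25 is higher in Mkl2-/-, while Cldn6 and Cldn7 overlap or touch between genotypes.

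Among the keratin genes, the type I keratin gene Krt19 had the largest fall. Krt19 read 9.29, 9.17 and 9.22 on the Mkl2-/- arrays, against 9.88 and 9.95 on the wild-type arrays. All 3 Mkl2-/- values lay below both wild-type values, with a gap of 0.59 between the nearest arrays. The difference was -0.69 ± 0.05 (SE, n = 3 and 2; limma adjusted p = 0.010), a 1.61-fold fall. The adjusted p lay between 0.044 and 0.076 when single arrays were left out, and passed without Mkl2-/- replicate 1 or 2.

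The partner genes Krt8 and Krt18, which lie next to each other on chromosome 15, both fell. Krt8 read 12.55, 12.55 and 12.66 on Mkl2-/- arrays, against 13.10 and 13.15 on wild-type arrays. Krt18 read 10.99, 11.07 and 11.28 on Mkl2-/- arrays, against 11.72 and 11.81 on wild-type arrays. In both genes the arrays nearest each other across genotypes were 0.44 apart, and Mkl2-/- replicate 3 was the highest of its group. The difference of Krt8 was -0.54 ± 0.05 (SE, n = 3 and 2; limma adjusted p = 0.014), a 1.45-fold fall. For Krt18 it was -0.65 ± 0.10 (SE, n = 3 and 2; limma adjusted p = 0.043), a 1.57-fold fall with the widest interval of the 10 genes (-0.94 to -0.36). With single arrays left out, the adjusted p of Krt8 lay between 0.036 and 0.094 and passed only without Mkl2-/- replicate 3. That of Krt18 lay between 0.052 and 0.20 and passed in none of these fits, and Krt18 also missed the threshold among all 35556 features (adjusted p = 0.060).

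Krt7, a type II keratin gene of simple and ductal epithelia, did not pass the test. It read 7.91, 7.86 and 8.06 on Mkl2-/- arrays, against 8.08 and 8.07 on wild-type arrays. The groups were 0.01 apart, and the difference of -0.13 had a 95% interval from -0.325 to 0.062 (limma adjusted p = 0.37). Of the other 48 keratin genes on the array, which include those of skin and hair, 20 lay above background and 0 were called by limma, while 3 had an unadjusted p under 0.05. Their differences ran from -0.06 to 0.245 with a median of 0.03. The smallest p-values were those of Krt71 (0.09, adjusted p = 0.094), the epidermal gene Krt14 (-0.06, adjusted p = 0.14), Krt13 (0.245, adjusted p = 0.21) and Krt74 (0.12, adjusted p = 0.31), and Krt13 and Krt74 lay below background on all 5 arrays. In the fit without wild-type replicate 1 this family had 1 call.

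Rab25 had the largest difference of the 10 genes and the opposite direction to the keratins. It read 10.06, 10.12 and 10.15 on Mkl2-/- arrays, against 8.64 and 8.50 on wild-type arrays. The groups were 1.42 apart, far more than the spread within either group. The difference was 1.54 ± 0.06 (SE, n = 3 and 2; limma adjusted p = 0.0060), a 2.91-fold rise, and ranked 8 among the 596 genes that rose. With single arrays left out the adjusted p lay between 0.036 and 0.058, and the call was lost only without wild-type replicate 2.

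Other genes of the Rab11 recycling route did not rise with it. Of 11 measured genes 3 fell, 0 rose by limma (4 in either direction had an unadjusted p under 0.05) and 8 did not pass. The share called was 27.3%, against 9.27% of all genes. The genes that fell encode Rab11 effector proteins. Rab11fip5 read 7.92, 7.91 and 7.93 in Mkl2-/-, against 8.52 and 8.53 in wild type (-0.605 ± 0.012, SE; limma adjusted p = 0.0041). Rab11fip1, whose product binds Rab25 as well as Rab11, read 9.95 to 10.16 in Mkl2-/-, against 10.81 to 10.83 in wild type (-0.78 ± 0.07; adjusted p = 0.016). Rab11fip4 differed by -0.24 (adjusted p = 0.030). The GTPase genes Rab11a (-0.03, adjusted p = 0.39) and Rab11b (0.09, adjusted p = 0.39) and the motor gene Myo5b (0.18, adjusted p = 0.10) did not pass. Without wild-type replicate 2 none of the 3 calls held, and without any other single array 1 or 2 held.

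Grhl2 rose by a small amount. It read 9.45, 9.53 and 9.43 on Mkl2-/- arrays, against 9.19 and 9.20 on wild-type arrays. The groups were 0.23 apart, and the difference was 0.275 ± 0.036 (SE, n = 3 and 2; limma adjusted p = 0.029), a 1.21-fold rise. With single arrays left out the adjusted p lay between 0.043 and 0.14 and passed only without Mkl2-/- replicate 2. Of its 5 measured relatives, Tfcp2l1, a stem cell transcription factor gene on chromosome 1, fell (-0.665 ± 0.09; adjusted p = 0.033), and the 758 genes above background on chromosome 1 had a median difference of -0.17. That call passed in 1 of the 5 fits with an array left out (adjusted p up to 0.17). Grhl1 (0.17, adjusted p = 0.12) and Grhl3 (-0.01, adjusted p = 0.83), the other epithelial grainyhead-like genes, did not pass, nor did Ubp1 (0.09, adjusted p = 0.23) and Tfcp2 (0.04, adjusted p = 0.39).

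Esrp1 lay just outside the threshold. It read 11.19, 11.24 and 11.20 on Mkl2-/- arrays, against 11.06 and 11.11 on wild-type arrays. The groups were 0.08 apart, and the difference of 0.125 ± 0.026 had a 95% interval, not adjusted for the number of genes, from 0.053 to 0.197 (limma adjusted p = 0.072). It passed after quantile normalization (adjusted p = 0.032) and among genes above the median gene (adjusted p = 0.040). Its relative Esrp2 differed by 0.16 (adjusted p = 0.20).

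None of the 3 claudin genes passed the test. Cldn4 read 11.88, 11.85 and 11.95 on Mkl2-/- arrays, against 11.78 and 11.72 on wild-type arrays, a gap of 0.07. Its difference was 0.14 with a 95% interval from 0.031 to 0.256 (limma adjusted p = 0.14), and it passed only after quantile normalization (adjusted p = 0.049). Cldn6, a claudin of embryonic epithelia, read 12.39, 12.40 and 12.37 in Mkl2-/-, against 12.44 and 12.39 in wild type. These groups overlapped, and the 95% interval from -0.088 to 0.032 bounds any change to a small one. Cldn7 read 10.28, 10.44 and 10.36 in Mkl2-/-, against 10.28 and 10.21 in wild type, with 1 value shared between groups and an interval from -0.048 to 0.278 (limma adjusted p = 0.36). Of the 20 other claudin genes 10 lay above background and 0 were called by limma, while 1 had an unadjusted p under 0.05 (Cldn9, 0.14, adjusted p = 0.069). The next smallest p-values were those of Cldn3 (0.14, adjusted p = 0.30), Cldn19 (0.12, adjusted p = 0.34) and Cldn18 (0.09, adjusted p = 0.38). Among genes above background only, and without wild-type replicate 1, these claudin genes had 1 call, each time higher.

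**Figure D2:**
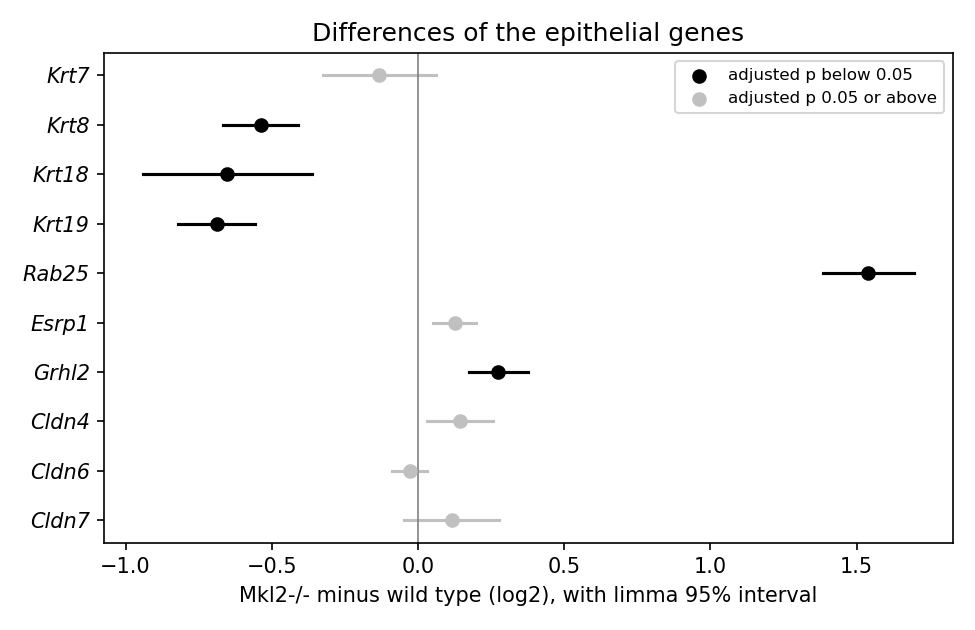
Differences of the 10 epithelial genes (horizontal axis, Mkl2-/- minus wild type on the log2 scale) with limma 95% intervals that are not adjusted for the number of genes, black where the adjusted p was below 0.05. Rab25 stands at 1.54 and the keratin genes Krt8, Krt18 and Krt19 between -0.54 and -0.69, while the claudin genes lie near 0.

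Apart from the Krt8 and Krt18 pair, none of the genes compared next to the 5 members that changed passed the test in the limma fit of all arrays. Among the 3 genes above background on each side of Rab25 on chromosome 3, 0 were called by limma, and their differences ran from -0.15 to 0.26. Krt19 on chromosome 11 had 6 such neighbours with 0 calls and differences from -0.06 to 0.07. Beside Krt8, the only called neighbour was Krt18, and the others, among them Krt5, Krt79 and Eif4b, had adjusted p-values of 0.11 or more. The neighbours of Grhl2 ran from -0.15 to 0.14 with 0 calls. Beside the members that did not pass, 1 neighbour was called: next to Cldn7 the glucose transporter gene Slc2a4 fell (-0.31, adjusted p = 0.019). The chromosomes of the 10 genes had median differences between 0.00 and 0.03.

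Genes with the array pattern most like each member were sought among the 13564 genes above background, by the Euclidean distance between profiles centred on their mean over the 5 arrays. Only members whose arrays spanned at least 0.5 were compared, and the patterns found mainly carry the split between genotypes. Krt8 was closest to Hmga2 (distance 0.026), Anxa3 (0.026) and Efnb1 (0.032). Krt18 was closest to Plat (0.104), Atf3 (0.107) and Slc39a8 (0.119), and Krt19 to Cpn1 (0.043), Lix1l (0.058) and Lrrk2 (0.062). Rab25 was closest to Lama1 (0.135), a basement membrane laminin gene, and then to Cyp2b23 (0.290) and Slc23a1 (0.295). A distance grows with the span of the member, which was 1.65 for Rab25, 0.60 for Krt8, 0.82 for Krt18 and 0.78 for Krt19, so distances are not set against each other between members.

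Other epithelial genes moved both ways as well, and among the called genes of the epithelial programme more rose than fell. Of 27 measured genes of epithelial regulators, surface proteins and sorting factors, 7 rose, 1 fell and 19 did not pass (median difference 0.03). The share called was 29.6%, against 9.27% of all genes and 12.9% of those above background. This list was chosen with earlier results known, so its share is no independent evidence. Ap1m2, which encodes the epithelial subunit of a clathrin adaptor, read 9.85, 9.97 and 9.86 in Mkl2-/-, against 8.97 and 8.90 in wild type (0.96 ± 0.05, SE; limma adjusted p = 0.0079). Cdcp1, a transmembrane protein gene, rose by 0.59 (adjusted p = 0.011) and Mal2, whose product acts in apical transport, by 0.50 (adjusted p = 0.0091). The transcription factor genes Klf5 (0.28, adjusted p = 0.015) and Ovol2 (0.12, adjusted p = 0.019), the integrin gene Itgb4 (0.35, adjusted p = 0.028) and Prom2 (0.46, adjusted p = 0.040) rose too. The receptor gene Erbb3 fell (-0.33, adjusted p = 0.014). Klf5, Ovol2 and Erbb3 passed in no fit with a single Mkl2-/- array left out. Without wild-type replicate 2 this list had 0 calls (smallest adjusted p over all genes 0.058), and with any other array left out it had 1 to 4.

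Junction genes moved both ways, and the balance of rises and falls depended on the scaling. Of 39 measured genes of adherens junctions, tight junctions, desmosomes and polarity complexes, 5 fell, 1 rose and 33 did not pass (median difference -0.045). All 39 lay above background, and the share called, 15.4%, was close to the 12.9% of all genes above background. Cdh1, the E-cadherin gene, read 12.79, 12.71 and 12.73 in Mkl2-/-, against 12.49 and 12.56 in wild type (0.22 ± 0.04, SE; limma adjusted p = 0.049). The catenin gene Ctnnd1 (-0.15, adjusted p = 0.016), the cytolinker gene Dst on chromosome 1 (-0.465, adjusted p = 0.024) and the polarity gene Llgl2 (-0.34, adjusted p = 0.038) fell. The scaffold gene Tjp1 (-0.29, adjusted p = 0.035) fell, and so did Dsp (-0.31, adjusted p = 0.034), whose product desmoplakin ties keratin filaments to desmosomes. Epcam (0.235, adjusted p = 0.088) and the tight junction gene Ocln (0.20, adjusted p = 0.059) did not pass. This list had 15 calls (9 higher and 6 lower) after quantile normalization and 12 calls (5 higher and 7 lower) after cyclic loess. None of the 6 calls, that of Cdh1 among them, held in any fit with a single array left out. Without any single Mkl2-/- array, 0 junction genes were called.

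**Figure D3:**
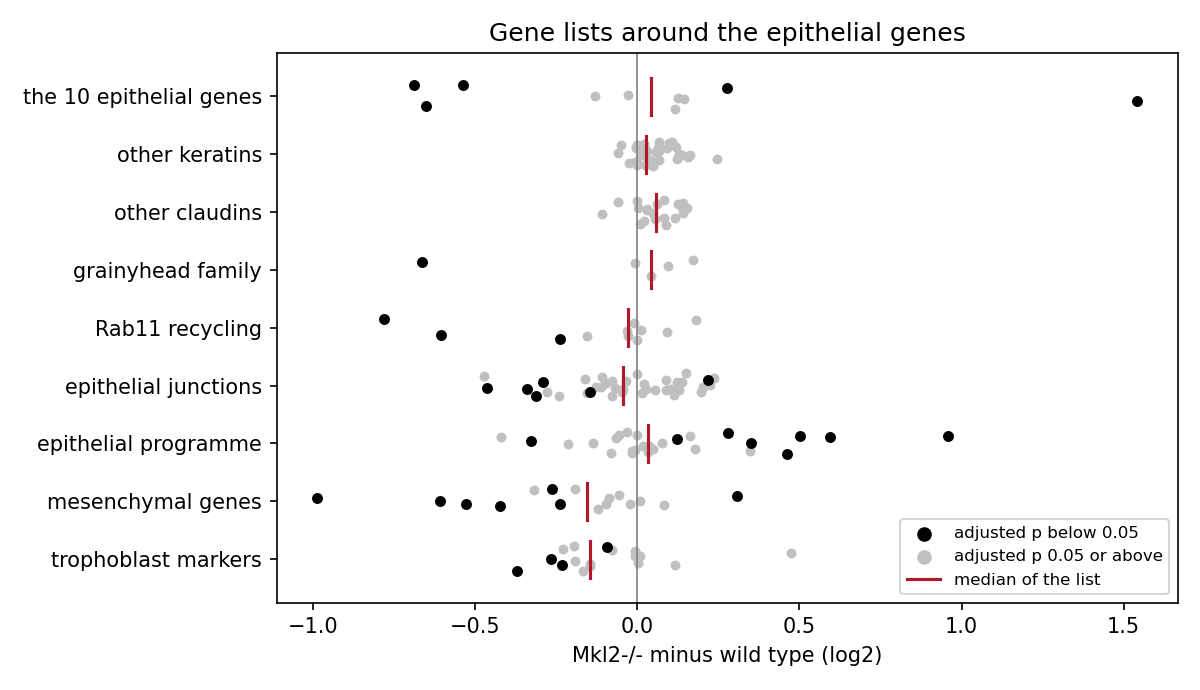
Differences (horizontal axis, Mkl2-/- minus wild type on the log2 scale) of single genes in the 10 epithelial genes and 8 related lists (rows), black where the limma adjusted p was below 0.05, with red lines at the list medians. The other keratins and claudins have 0 called genes, the epithelial programme has 7 black points on the right and 1 on the left, and the mesenchymal genes have 6 on the left and 1 on the right.

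Among mesenchymal genes, which include repressors that bind the E-box shown above, 6 of 16 fell, 1 rose and 9 did not pass (median difference -0.16). The share called was 43.75%, against 9.27% of all genes. Zeb2, a repressor gene, read 7.41, 7.48 and 7.50 in Mkl2-/-, near the background level, against 8.31 and 8.59 in wild type. Its difference was -0.99 ± 0.10 (SE, n = 3 and 2; limma adjusted p = 0.017), a 1.98-fold fall. Snai1, another repressor gene, read 9.08, 8.98 and 9.02 in Mkl2-/-, against 9.55 and 9.56 in wild type (-0.53 ± 0.03; adjusted p = 0.0096). Both genes were lower on all 3 Mkl2-/- arrays, where Rab25, Grhl2 and Cdh1 were higher and the keratin genes lower. The E-box was in windows of Rab25, which rose, and of Krt8 and Krt18, which fell. It was also in windows of Krt7, Cldn4, Cldn6 and Cldn7, which did not pass, and Grhl2 had no matched window. Whether Zeb2 or Snai1 acts on these genes was not tested. The related repressor genes Zeb1 (-0.06, adjusted p = 0.35) and Snai2 (-0.10, adjusted p = 0.39, below background on all 3 Mkl2-/- arrays) did not pass. Twist1 rose (0.31, adjusted p = 0.018), Mmp2 fell by 0.26 on the log2 scale (adjusted p = 0.011), and Vim, the mesenchymal filament gene, differed by -0.32 (adjusted p = 0.076). Twist1 and Mmp2 also count among the fibroblast markers below. Fn1 fell (-0.61, limma adjusted p = 0.019) and lies on chromosome 1, where genes above background had a median difference of -0.17. Zeb2 passed in 1 and Snai1 in 2 of the 5 fits with an array left out, and without wild-type replicate 2 none of the 7 calls held.

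**Figure D4:**
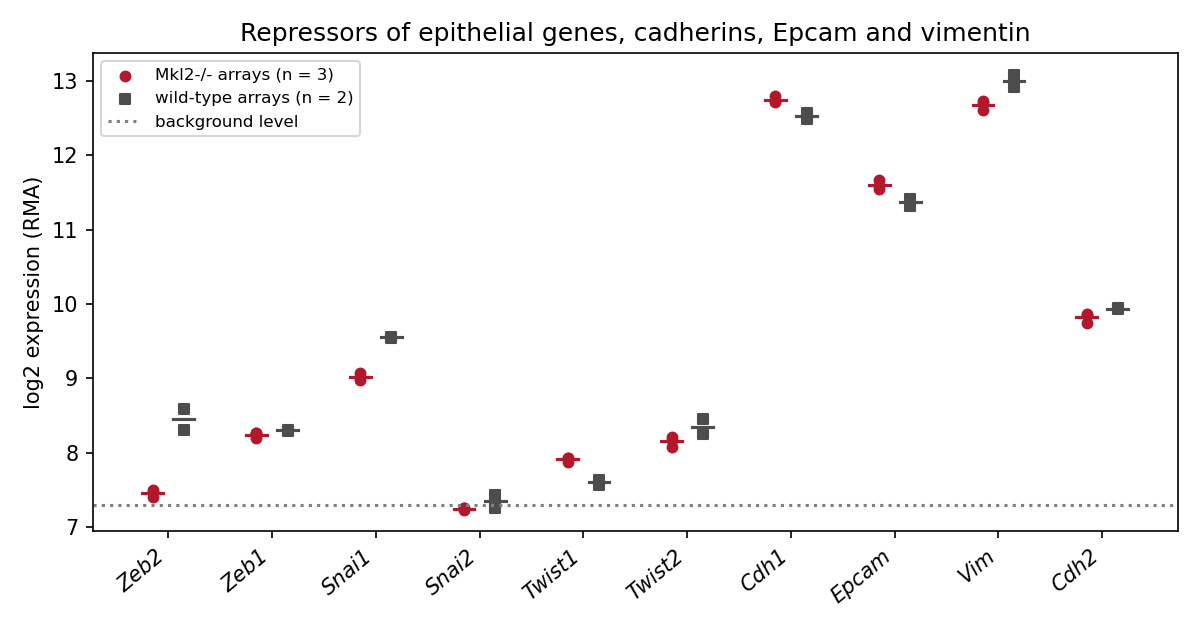
Log2 expression (vertical axis) of repressor genes, cadherins, Epcam and Vim on each of the 3 Mkl2-/- arrays (red circles) and 2 wild-type arrays (grey squares), with short lines at group means and a dotted line at the background level. Zeb2 and Snai1 are lower and Cdh1 is higher in Mkl2-/-, while Zeb1 and Snai2 lie close together.

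Keratins 8, 18 and 19 are also made by trophoblast and extraembryonic endoderm cells, so markers of these cells were measured beside them. Of 17 trophoblast markers 4 fell, 0 rose by limma (9 in either direction had an unadjusted p under 0.05), and the array means of the list ran from 8.01 to 8.04 in Mkl2-/- and from 8.12 to 8.13 in wild type. The 4 calls were 23.5% of the list, against 9.27% of all genes. Cdx2 (-0.37, adjusted p = 0.013), Tfap2a (-0.265, adjusted p = 0.013), Tead4 (-0.23, adjusted p = 0.023) and Esx1 (-0.095, adjusted p = 0.019) fell. The trophoblast genes Elf5, Plac1 and Tpbpa lay below background on all 5 arrays, and Eomes differed by -0.01 (adjusted p = 0.72). The other 13 did not pass, and Hand1, with the largest difference of the list, read 8.60, 8.54 and 8.79 in Mkl2-/-, against 8.22 and 8.12 in wild type (0.47, adjusted p = 0.065). In the fits after cyclic loess, after quantile normalization and with either filter on dim genes, 1 trophoblast marker was called higher. The list's median difference was -0.145, and the part of these cells in the keratin falls was not tested.

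Of 18 primitive endoderm markers 7 rose, 0 fell by limma (10 in either direction had an unadjusted p under 0.05) and 11 did not pass, with a median difference of 0.24. The 7 calls were 38.9% of the list, against 9.27% of all genes. The array means ran from 8.80 to 8.97 in Mkl2-/- and from 8.09 to 8.16 in wild type. These means lean on Srgn and Cubn, which no wild-type array showed above background and which rose at least 24.7-fold and at least 4.02-fold when those arrays are set to the background level. Lama1 (1.45, adjusted p = 0.0079), Gata4 (0.93, adjusted p = 0.016), Gata6 (0.935, adjusted p = 0.020), Pdgfra (0.75, adjusted p = 0.015) and Lamb1 (0.19, adjusted p = 0.039) rose too, while Lamc1 differed by -0.10 (adjusted p = 0.16) and Foxa2 by 0.00. Of 24 fibroblast markers, which follow feeder cells, 3 fell (Has2, -0.76; Mmp2, -0.26; Pdgfrb, -0.28) and 1 rose (Twist1, 0.31), with array means from 7.78 to 7.84 in Mkl2-/- and at 7.92 in both wild-type arrays. Of this list 16.7% was called. The part of endoderm-like or feeder cells in the differences of the 10 epithelial genes and of the mesenchymal genes was not tested. With single Mkl2-/- arrays left out, 0 trophoblast markers, 2 to 4 primitive endoderm markers and 0 or 1 fibroblast markers were called. Gata4, Gata6, Lamb1, Mmp2, Pdgfrb and Twist1 passed in none of these fits. All calls in these marker lists were lost without wild-type replicate 2.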

How the data were processed

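The deposited table gives log2 intensities for 35556 features on 5 arrays. Per the submitters' processing notes, the authors used Affymetrix Expression Console 1.1 and RMA. RMA includes quantile normalization and compresses differences of dim features. No source used here gives further settings or the build, and 0 sample columns were left unused. The platform annotation names exactly 1 gene for 21789 features; 1621 features have several symbols and 12146 have no symbol. The brightest feature of each gene was kept (19938 genes).

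The test of genotype was limma 3.58.1 (lmFit, then eBayes) under R 4.3.3 (3 residual and 0.885 prior degrees of freedom), with Benjamini-Hochberg adjustment over all genes, and the fit was tested on simulated data. The number of arrays limits the precision. The 10 genes and all lists were chosen with earlier results of these data known, and of 8 listed symbols no feature was matched. Named genes were the 10 members, the 4 genes of each list with the smallest p, the 3 nearest profiles and called neighbours. Other list members were named after their values were seen. Alternatives were normalization, filters on dim genes, the variance model, array weights, feature choice, a replicate block and each array left out. Figures were drawn with matplotlib 3.10.9.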

Additional observations from a re-analysis of the deposited data

How the results depend on the processing

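The direction of the difference was kept in all 10 epithelial genes under every alternative run. The 5 calls among them stayed 5 to 7 with either added normalization, either filter on dim genes, a trended robust prior, array weights or averaged features, fell to 1 (Rab25) without moderation, and to 0 to 3 when single arrays were left out. Calls over all genes numbered 1848 (596 higher and 1252 lower), 2982 after cyclic loess (1005 and 1977), 3234 after quantile normalization (1483 and 1751), 294 without moderation and 0 to 963 with single arrays left out. In the related lists together 43 of 235 genes were called, 10 without moderation and 0 to 19 with single arrays left out. Without wild-type replicate 2 limma called 0 genes, while 4411 genes and 6 of the 10 had an unadjusted p under 0.05. Fits that leave out a wild-type array rest on 1 wild-type array, assumed to vary like the others. With the replicate number as a block (1 residual degree of freedom) limma called 0 genes, 0 of the 10 and 0 in the related lists. In that fit 3827, 8 and 61 had an unadjusted p under 0.05. Same-numbered arrays deviated from their group means with correlations of -0.201 and 0.191. The deviations of the 2 wild-type arrays mirror each other, so these correlations cannot decide whether the numbers are a pairing. The main fit used no pairing. In the fit of all 35556 features 4 of the 10 passed. The count of the 10 genes above background was 10, and 9 above the median gene (Krt7 was below it).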
